A study of Mus musculus with 13 samples.

Results

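The kinetochore is the protein machine that ties each chromosome to the spindle in mitosis, and 40 of its genes were followed here in transgenic mouse neuroblastomas and in normal adrenal gland. The genes were listed by name for their place in the complex, and cover centromeric chromatin, the inner and outer kinetochore, its corona, the spindle checkpoint, the chromosomal passenger complex, the guardian of centromeric cohesion and 1 centriole protein. All 40 had a probe set on the array, out of 18193 genes measured, and each was read from its probe set with the highest mean signal. Neuroblastoma is a childhood tumour of the sympathetic nervous system that can arise in the adrenal gland. Tumours came from mice on a C57BL/6 background that expressed both MYCN and mutated ALK (labelled MYCN AND mutated ALK, called double transgenic here, n = 3 arrays), mutated ALK (mutALK, n = 3) or MYCN (n = 4). The normal adrenal gland of C57BL/6 mice (n = 3) served as control. MYCN is a transcription factor and ALK a receptor tyrosine kinase, and both transgenes were expressed specifically in the neural crest. Animals were killed once a tumour could be felt, and neither their age nor the ALK mutation is given in the labels. Bulk tumour RNA holds other cells of the tumour too, and the labels do not say whether each array comes from another animal, so p-values measure only the spread between these arrays.

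Centromeres are marked by nucleosomes that hold the histone variant Cenpa. A constitutive network of inner kinetochore proteins sits on these nucleosomes, and in mitosis the outer kinetochore (the Knl1, Mis12 and Ndc80 complexes) assembles on it and grips microtubules. The checkpoint kinases Bub1 and Ttk and their partners hold back anaphase until every kinetochore is attached, while Aurkb and the passenger complex release wrong attachments. Many of these genes are transcribed mainly in late S phase, G2 and mitosis. In bulk RNA fewer cells of a type and less RNA per cell cannot be told apart.

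RNA levels are RMA values on the log2 scale, and a difference is the first group named minus the second ± SE, tested with limma over all 18193 genes and called at a Benjamini-Hochberg adjusted p under 0.05. Array medians lay between 5.80 and 5.90, and correlations between arrays of a group, across genes, which are not independent replicates, ran from 0.938 to 0.991. As a guide to background, genes of tissues that should be absent had a median value of 3.88 and ranged from 2.66 to 8.67, and 112 of the 120 adrenal values of the kinetochore genes lie at or under that highest value. The 9 adrenal cortex markers averaged 4.98 to 6.80 in the 10 tumour arrays, against 11.40 to 12.80 in the adrenal arrays, and 8 sympathoadrenal markers averaged 10.65 to 12.26 in the tumours, against 8.21 to 10.55. Liver markers stood apart in 5 arrays, with list means of 12.38 in double transgenic 1, 11.24 and 9.98 in mutALK 1 and 3, 9.11 in MYCN 2 and 11.37 in adrenal 2, against 4.65 to 6.19 in the others. Endothelial markers (6 of 6) averaged 5.52 to 6.13 in double transgenic, 6.71 to 7.43 in mutALK and 6.56 to 7.83 in MYCN tumours, against 8.98 to 9.18 in adrenal gland. Erythroid markers were highest in mutALK 2 (9.04) and skeletal muscle markers in MYCN 3 (8.57). The part of these lists in the results was not tested. Mouse Mycn averaged 10.19, 12.03 and 6.35 in double transgenic, mutALK and MYCN tumours, against 7.69 in adrenal gland, and Alk averaged 9.11, 8.79 and 9.44, against 5.17. Whether these probe sets read the transgenes is not given, so neither gene checks the labels.

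Because most of the genes moved together, the promoters of 4 of them are shown. Bub1 had the largest rise in MYCN tumours, Cenpa encodes the mark of the centromere, Ttk had the largest difference between tumour types and Cenpb was the only gene lower in a tumour type than in adrenal gland. Each sequence is the 250 bases before the annotated start, 5′ to 3′ on the gene's strand, from RefSeq on mouse build GRCm38.p6, in lower case with 4 searched motifs in capitals.
Bub1 (chr2:127831860-127832109, minus strand): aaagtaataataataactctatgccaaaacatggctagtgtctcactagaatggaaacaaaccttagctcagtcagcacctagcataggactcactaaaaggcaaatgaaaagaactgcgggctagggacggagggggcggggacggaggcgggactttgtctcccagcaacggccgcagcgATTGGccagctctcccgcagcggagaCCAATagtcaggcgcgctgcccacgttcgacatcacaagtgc
Cenpa (chr5:30666636-30666885, plus strand): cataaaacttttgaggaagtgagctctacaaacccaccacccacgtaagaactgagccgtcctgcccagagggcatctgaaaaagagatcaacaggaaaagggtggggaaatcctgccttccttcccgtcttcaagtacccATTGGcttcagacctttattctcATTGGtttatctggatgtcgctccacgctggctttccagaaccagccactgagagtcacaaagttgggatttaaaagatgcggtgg
Ttk (chr9:83834439-83834688, plus strand): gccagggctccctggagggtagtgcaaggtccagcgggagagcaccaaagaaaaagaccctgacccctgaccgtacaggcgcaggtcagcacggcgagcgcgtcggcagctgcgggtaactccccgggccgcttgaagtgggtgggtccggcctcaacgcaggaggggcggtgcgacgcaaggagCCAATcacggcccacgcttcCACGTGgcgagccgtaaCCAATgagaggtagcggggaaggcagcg
Cenpb (chr2:131180068-131180317, minus strand): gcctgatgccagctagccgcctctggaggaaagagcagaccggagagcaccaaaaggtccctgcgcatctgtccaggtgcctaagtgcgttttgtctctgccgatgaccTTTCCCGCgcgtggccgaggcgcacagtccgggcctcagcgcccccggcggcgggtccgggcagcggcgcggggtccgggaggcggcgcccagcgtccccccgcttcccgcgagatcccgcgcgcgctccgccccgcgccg
The motifs, searched on both strands, were CCAAT (the NF-Y box, ATTGG on the other strand), TTTGAA (the cell cycle homology region), TTTCCCGC (an E2F site) and CACGTG (an E-box that MYC proteins can bind). In these 4 windows no match shares letters with another. Bub1 has CCAAT at positions -68 and -42 from the start, Cenpa at -109 and -86, and Ttk at -65 and -28 with an E-box at -45 between them. Past the start, in bases that are not printed, TTTGAA was found at position 16 in Cenpa and 7 in Ttk. The Cenpb window holds no CCAAT and has the E2F word at -141.
RefSeq windows from 250 bases before to 50 after the start were at hand for 35 of the 40 genes, 39 windows in all. CCAAT was in 26 of these 39 windows (66.7%), against 37.4% of all 32851 mouse windows. TTTGAA was in 14 (35.9%, against 17.9% of all windows), TTTCCCGC in 4 (10.3%, against 1.07%) and CACGTG in 3 (7.69%, against 7.15%). A match describes the letters only, and binding was not measured.

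Against adrenal gland nearly the whole kinetochore list was higher in each tumour type. In double transgenic tumours 34 of 40 genes rose (24.3% of all genes did) and 1 fell (24.2% of all genes), so that 35 were called where 48.6% of all genes were. In mutALK tumours 33 rose (21.3%) and 0 fell (21%) by limma, where 42.2% of all genes were called and 34 of the 40 differed in either direction at an unadjusted p under 0.05 (48.4% of all genes). In MYCN tumours 37 rose (25.4%) and 0 fell (24.8%) by limma, where 50.2% of all genes were called and 38 of the 40 differed at an unadjusted p under 0.05 (54.6% of all genes). The median difference over the 40 genes was 3.06 in double transgenic, 1.95 in mutALK and 3.15 in MYCN tumours, while the median over all genes was -0.03, 0.002 and -0.02. The rise was at least 2-fold for 30 of the called genes in double transgenic, 28 in mutALK and 32 in MYCN tumours. Of all 18193 genes 5109, 4251 and 5211 were called with at least a 2-fold difference in either direction. Every tumour array lay above every adrenal array for 35 genes in double transgenic tumours, 34 in mutALK and 38 in MYCN (26.5%, 24% and 26.8% of all genes), and below for 1, 1 and 0 (26.7%, 24.1% and 26.7%). Each of 32 genes rose in all 3 tumour types, as did 14.6% of all genes. The 3 comparisons share the 3 adrenal arrays.

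**Figure D1:**
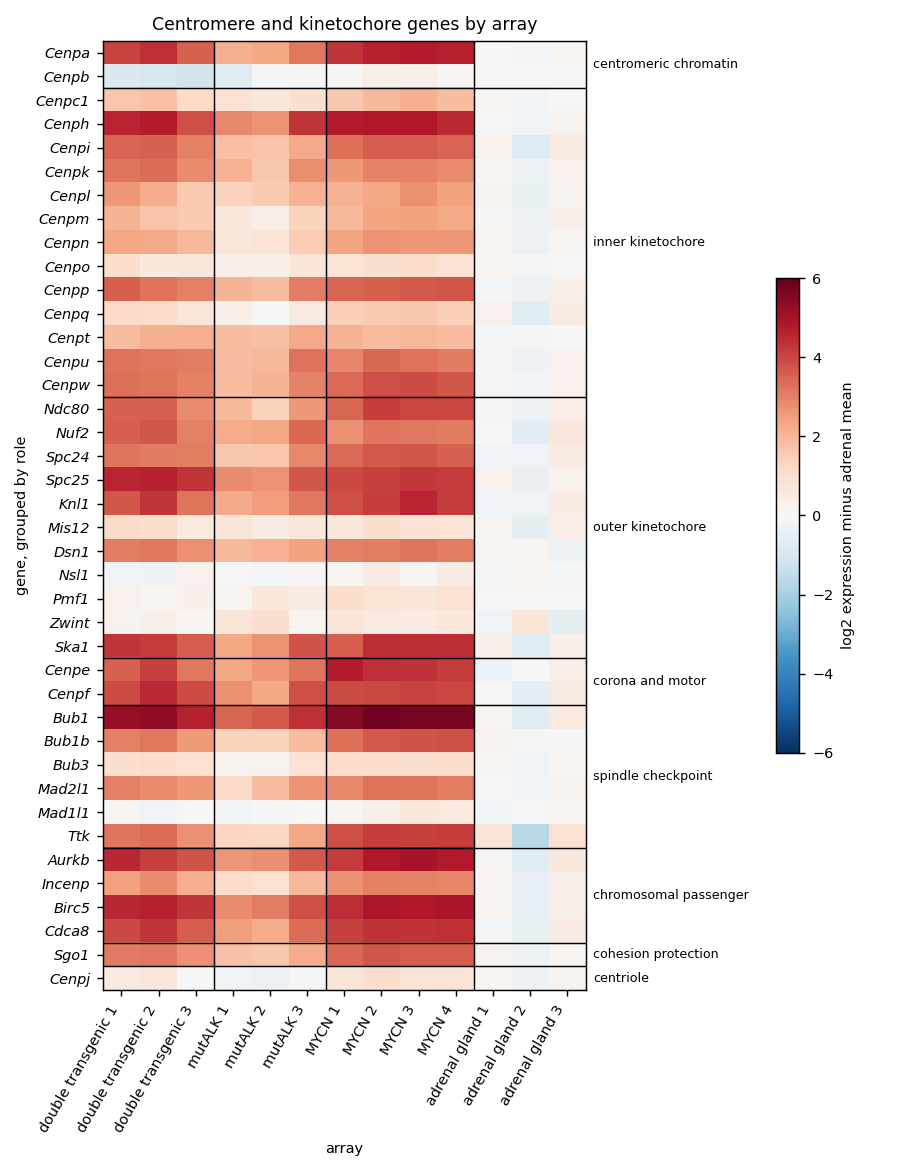
Each cell is the log2 expression of 1 gene (rows, grouped by role) on 1 array (columns) minus that gene's adrenal mean, from -6 (blue) to 6 (red). Most rows are red in the 10 tumour columns, palest in mutALK 1 and 2, while Nsl1, Mad1l1 and Zwint stay pale and Cenpb is blue in the double transgenic tumours.

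The mean over the 40 genes did not overlap between any of the 4 groups. It was 9.28, 9.32 and 8.92 in the double transgenic tumours, 8.10, 8.12 and 8.83 in the mutALK tumours and 9.33, 9.59, 9.60 and 9.53 in the MYCN tumours, against 6.67, 6.29 and 6.87 in the adrenal glands. All 4 MYCN arrays were above all double transgenic arrays, which in turn were above all mutALK arrays. The gaps were small, with MYCN 1 at 9.33 against double transgenic 2 at 9.32, and double transgenic 3 at 8.92 against mutALK 3 at 8.83. Ranked by group mean, 28 of the 40 genes ran MYCN, double transgenic, mutALK, adrenal from high to low, an order that 11.5% of all genes had. Double transgenic tumours ranked first in 6 genes: Cenpk, Nuf2, Spc25, Mis12, Cenpf and Cenpt.

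Single arrays shaped the spread inside the groups. Double transgenic 3 was the lowest of its group in 34 genes, mutALK 3 the highest of its group in 37, MYCN 1 the lowest of its group in 33 and adrenal 2 the lowest of its group in 31. The median SD of the 40 genes was 0.28 in double transgenic, 0.47 in mutALK and 0.16 in MYCN tumours, against 0.34 in adrenal gland, where Ttk had the widest at 1.45. Over all genes the median SD was 0.19, 0.18, 0.15 and 0.22 in the same order. Adrenal 2 and mutALK 3 are among the arrays with liver transcripts. The other liver arrays, double transgenic 1, mutALK 1 and MYCN 2, were the highest of their groups in 16, 1 and 16 genes and the lowest in 2, 19 and 0. MYCN 1 had the highest B cell (6.44) and T cell (6.01) marker means of the 13 arrays. Among the adrenal arrays, adrenal 2 had the highest Schwann cell (9.41) and sympathoadrenal (10.55) marker means. It had the lowest adrenal cortex (11.40) and adrenal medulla (9.97) means. The part of these transcripts in the levels was not tested. Without the 5 liver arrays, which leaves mutALK 2 alone in its group with its spread taken from the other groups, 35 genes were called in double transgenic, 27 in mutALK and 37 in MYCN tumours.

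In centromeric chromatin Cenpa and Cenpb parted. Cenpa, the centromeric histone, read 11.04, 11.35 and 10.53 in double transgenic, 9.10, 9.28 and 10.14 in mutALK and 11.26, 11.59, 11.67 and 11.62 in MYCN tumours, against 6.95, 6.88 and 7.08 in adrenal gland. Every tumour array was above every adrenal array, and Cenpa rose by 4.002 ± 0.26 in double transgenic (adjusted p = 6.4e-07), 2.54 ± 0.26 in mutALK (2.1e-05) and 4.56 ± 0.25 in MYCN tumours (1.3e-07). Its second, much dimmer probe set read 4.28 to 4.46 in MYCN tumours, below mutALK tumours (5.66 to 6.11) and adrenal gland (4.64 to 4.94). Neither difference was called, and double transgenic tumours spread from 4.16 to 8.14 there. The third, dimmer still, read 3.84 to 4.41 in MYCN tumours and 2.77 to 3.18 in adrenal gland. Cenpb, which binds a short motif in satellite DNA, read 7.27, 7.20 and 7.05 in double transgenic, 7.42, 8.004 and 8.03 in mutALK and 8.21, 8.48, 8.48 and 8.25 in MYCN tumours, against 8.17, 8.11 and 8.13 in adrenal gland. The double transgenic arrays were the lowest of all 13, and the fall of 0.96 ± 0.16 against adrenal was called (adjusted p = 0.000327). The difference was -0.32 ± 0.16 in mutALK tumours (0.136) and 0.22 ± 0.15 in MYCN tumours (0.248).

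All 13 inner kinetochore genes rose in double transgenic tumours, 12 in mutALK tumours (Cenpq, 0.31 ± 0.27, adjusted p = 0.401, was not called) and all 13 in MYCN tumours, where 24.3%, 21.3% and 25.4% of all genes rose. Cenph, a core subunit of the network, led with 8.63, 8.75 and 7.90 in double transgenic, 6.93, 6.74 and 8.32 in mutALK and 8.78, 8.87, 8.86 and 8.52 in MYCN tumours, against 4.08, 3.80 and 4.27 in adrenal gland. These adrenal values lie near the median of absent-tissue genes, so the differences of Cenph may be no more than lower bounds. Cenph rose by 4.38 ± 0.36, 3.28 ± 0.36 and 4.71 ± 0.34 in double transgenic, mutALK and MYCN tumours (adjusted p = 2.35e-06, 3.06e-05 and 6.41e-07). Its partners Cenpi and Cenpk rose by 3.51 ± 0.27 and 2.85 ± 0.25 in MYCN tumours, and Cenpm, of the same subcomplex, by 2.25 ± 0.24. Cenpn and Cenpl, which form a pair that reads the Cenpa nucleosome, rose by 2.58 ± 0.21 and 2.39 ± 0.26. Of the complex that holds Cenpo, Cenpp, Cenpq and Cenpu, Cenpp (3.63 ± 0.27) and Cenpu (3.20 ± 0.29) rose most in MYCN tumours and Cenpo least (0.92 ± 0.14). Cenpc1, the scaffold between the Cenpa nucleosome and the outer kinetochore, rose by 1.54 ± 0.17, 0.84 ± 0.17 and 1.89 ± 0.16 in double transgenic, mutALK and MYCN tumours.

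Cenpt and Cenpw are histone-fold partners that recruit the Ndc80 complex. Cenpt stood at 8.73, 9.03 and 9.04 in double transgenic, 8.73, 8.70 and 9.14 in mutALK and 8.97, 8.73, 8.84 and 8.71 in MYCN tumours, against 6.78, 6.93 and 6.90 in adrenal gland. The 3 tumour types overlapped, with rises of 2.06 ± 0.14, 1.98 ± 0.14 and 1.94 ± 0.13. Cenpw rose by 3.18 ± 0.26, 2.29 ± 0.26 and 3.72 ± 0.25 in the same order.

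Among 11 outer kinetochore genes 8 rose in double transgenic, 9 in mutALK and 9 in MYCN tumours (24.3%, 21.3% and 25.4% of all genes). All 4 subunits of the Ndc80 complex, the microtubule grip, rose in each. Ndc80 read 8.74, 8.71 and 8.01 in double transgenic, 7.10, 6.54 and 7.79 in mutALK and 8.61, 9.32, 9.21 and 9.19 in MYCN tumours, against 5.11, 4.83 and 5.59 in adrenal gland. Its rise was 3.31 ± 0.33, 1.97 ± 0.33 and 3.90 ± 0.31 (adjusted p = 8.46e-06, 0.000527 and 1.18e-06). Spc25 rose by 4.49 ± 0.26, 3.09 ± 0.26 and 4.13 ± 0.25, Spc24 by 3.14 ± 0.31, 2.05 ± 0.31 and 3.59 ± 0.29 and Nuf2 by 3.45 ± 0.37, 2.67 ± 0.37 and 3.07 ± 0.35 in double transgenic, mutALK and MYCN tumours. Knl1, the docking protein of the checkpoint kinases, rose by 3.75 ± 0.31, 2.66 ± 0.31 and 4.19 ± 0.29, and Ska1, of the complex that follows microtubule ends, by 4.04 ± 0.39, 2.92 ± 0.39 and 4.21 ± 0.36. The adrenal values of Ska1 (4.37, 3.44 and 4.34) were close to those of Cenph, and those of Knl1 (4.48, 4.53 and 5.16) a little higher. Their differences too may be no more than lower bounds.

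The Mis12 complex, which links the inner to the outer kinetochore, was uneven. Dsn1 rose by 2.99 ± 0.17, 2.14 ± 0.17 and 3.10 ± 0.15 in double transgenic, mutALK and MYCN tumours, and Mis12 by 0.92 ± 0.22, 0.62 ± 0.22 and 0.85 ± 0.21. In double transgenic tumours Pmf1 stood at 0.23 ± 0.13 (adjusted p = 0.161), and it rose by 0.45 ± 0.13 in mutALK and 0.88 ± 0.12 in MYCN tumours. Nsl1 read 6.09, 5.96 and 6.56 in double transgenic, 6.28, 6.21 and 6.34 in mutALK and 6.41, 6.76, 6.40 and 6.72 in MYCN tumours, against 6.22, 6.46 and 6.16 in adrenal gland. All groups overlapped the adrenal values, and no Nsl1 difference was called (-0.08 ± 0.17, -0.005 ± 0.17 and 0.29 ± 0.15).

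Nsl1 depends on the probe set. Its other, slightly dimmer probe set read 7.36, 7.73 and 7.17 in double transgenic, 5.82, 5.68 and 6.82 in mutALK and 7.20, 7.10, 7.19 and 7.21 in MYCN tumours, against 3.75, 3.59 and 3.88 in adrenal gland. In a fit across single probe sets it rose by 3.68 ± 0.25, 2.37 ± 0.25 and 3.44 ± 0.23 (adjusted p = 7.83e-07, 2.53e-05 and 4.74e-07), much as Dsn1 did. Zwint, which binds Knl1 and helps to recruit the corona, was likewise not called in its brightest probe set (0.20 ± 0.29, 0.59 ± 0.29 and 0.60 ± 0.27). The next 2 of its 7 probe sets rose in each tumour type, by 1.32 to 1.80 in double transgenic, 1.41 to 1.58 in mutALK and 1.36 to 1.69 in MYCN tumours. Adrenal 2, with 11.80 in the brightest Zwint probe set against 10.84 and 10.54 in the other adrenal arrays, decided its call: without it Zwint rose by 0.57, 0.96 and 0.97 (adjusted p = 0.0479, 0.00395 and 0.00206).

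**Figure D2:**
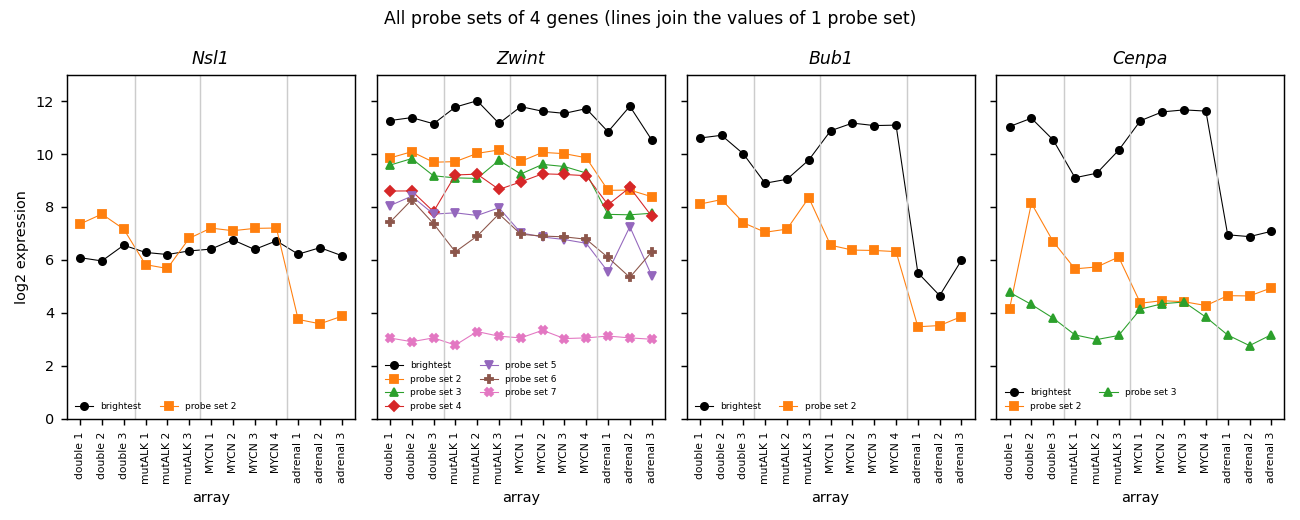
Log2 expression (y axis) of every probe set of Nsl1, Zwint, Bub1 and Cenpa on each of the 13 arrays (x axis), with the brightest probe set in black. The brightest Nsl1 probe set is level across arrays while the other drops in adrenal gland, and the second Bub1 probe set is higher in mutALK than in MYCN tumours where the brightest is lower.

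The corona and the checkpoint held the largest single change. Cenpe, a kinesin that carries chromosomes to the spindle equator, rose by 3.60 ± 0.29 in double transgenic, 2.70 ± 0.29 in mutALK and 4.40 ± 0.27 in MYCN tumours. Cenpf, a large coiled-coil protein of the corona, rose by 4.11 ± 0.36, 2.96 ± 0.36 and 3.99 ± 0.34. Bub1, a checkpoint kinase that docks on Knl1, read 10.60, 10.71 and 10.00 in double transgenic, 8.90, 9.05 and 9.77 in mutALK and 10.88, 11.17, 11.07 and 11.09 in MYCN tumours, against 5.52, 4.66 and 5.99 in adrenal gland. The gap between the lowest tumour array and the highest adrenal array was wider than the whole spread of the tumours. Bub1 rose by 5.05 ± 0.32, 3.85 ± 0.32 and 5.66 ± 0.30 (adjusted p = 5.61e-07, 5.23e-06 and 1.21e-07).

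Of 6 checkpoint genes 5 rose in double transgenic, 4 in mutALK and 6 in MYCN tumours (24.3%, 21.3% and 25.4% of all genes). Bub1b, the BubR1 arm of the checkpoint complex, read 9.63, 9.79 and 9.19 in double transgenic, 7.96, 7.99 and 8.52 in mutALK and 9.94, 10.32, 10.39 and 10.43 in MYCN tumours, against 6.82, 6.49 and 6.57 in adrenal gland. Its rises were 2.91 ± 0.20, 1.53 ± 0.20 and 3.65 ± 0.19, with no overlap between any of the 4 groups. Ttk, the kinase that starts checkpoint signalling, read 9.53, 9.68 and 9.09 in double transgenic, 7.64, 7.57 and 8.68 in mutALK and 10.22, 10.48, 10.42 and 10.47 in MYCN tumours, against 7.12, 4.67 and 7.23 in adrenal gland. Adrenal 2 was far below the other adrenal arrays, and the rises were 3.09 ± 0.56, 1.63 ± 0.56 and 4.06 ± 0.52 (adjusted p = 0.000671, 0.0346 and 4.8e-05). Mad2l1, the inhibitor that checkpoint signalling makes active, rose by 2.83 ± 0.30, 1.90 ± 0.30 and 3.10 ± 0.28. Bub3, the shared partner of Bub1 and Bub1b, rose by 0.98 ± 0.17 in double transgenic and 1.06 ± 0.16 in MYCN tumours and stood at 0.44 ± 0.17 in mutALK tumours (adjusted p = 0.0583). Mad1l1, the receptor of Mad2l1 at the kinetochore, read 5.04, 4.71 and 4.87 in double transgenic, 4.74, 4.77 and 4.89 in mutALK and 5.03, 5.23, 5.54 and 5.51 in MYCN tumours, against 4.74, 4.95 and 5.02 in adrenal gland. Only in MYCN tumours did every array lie above every adrenal array, narrowly so for MYCN 1 (5.03, against 5.02 in adrenal 3). The rise there was 0.43 ± 0.14 (adjusted p = 0.0235), a call that was lost without MYCN 3, MYCN 4 or adrenal 1 (0.36, 0.37 and 0.35, adjusted p = 0.068, 0.0655 and 0.0991).

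All 4 passenger genes rose in each tumour type, as did 14.6% of all genes. Birc5 (survivin), the subunit that brings the complex to the centromere, read 10.96, 11.09 and 10.76 in double transgenic, 9.31, 9.54 and 10.34 in mutALK and 10.90, 11.29, 11.27 and 11.34 in MYCN tumours, against 6.58, 5.98 and 6.81 in adrenal gland. Its rises of 4.48 ± 0.27, 3.28 ± 0.27 and 4.74 ± 0.25 (adjusted p = 4.11e-07, 4.24e-06 and 1.11e-07) left a wide gap to adrenal gland. Aurkb, the kinase of the complex, rose by 4.13 ± 0.36, 3.03 ± 0.36 and 4.67 ± 0.34, Cdca8 (borealin) by 3.97 ± 0.29, 2.70 ± 0.29 and 4.29 ± 0.27 and Incenp, the scaffold, by 2.48 ± 0.28, 1.30 ± 0.28 and 2.92 ± 0.27. Aurkb was low in adrenal gland (4.63, 3.84 and 5.19), so its differences may also be lower bounds. Sgo1 (shugoshin), which shields centromeric cohesin until anaphase, read 9.16, 9.21 and 8.79 in double transgenic, 7.78, 7.71 and 8.26 in mutALK and 9.46, 9.77, 9.68 and 9.65 in MYCN tumours, against 6.22, 5.70 and 6.17 in adrenal gland. No 2 of the 4 groups overlapped, and the rises were 3.03 ± 0.19, 1.89 ± 0.19 and 3.61 ± 0.17 (adjusted p = 4.65e-07, 1.47e-05 and 7.73e-08). Cenpj, a centriole protein despite its name, rose by 0.84 ± 0.18 in MYCN tumours and stood at 0.40 ± 0.19 in double transgenic and -0.24 ± 0.19 in mutALK tumours (adjusted p = 0.0018, 0.103 and 0.362).

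**Figure D3:**
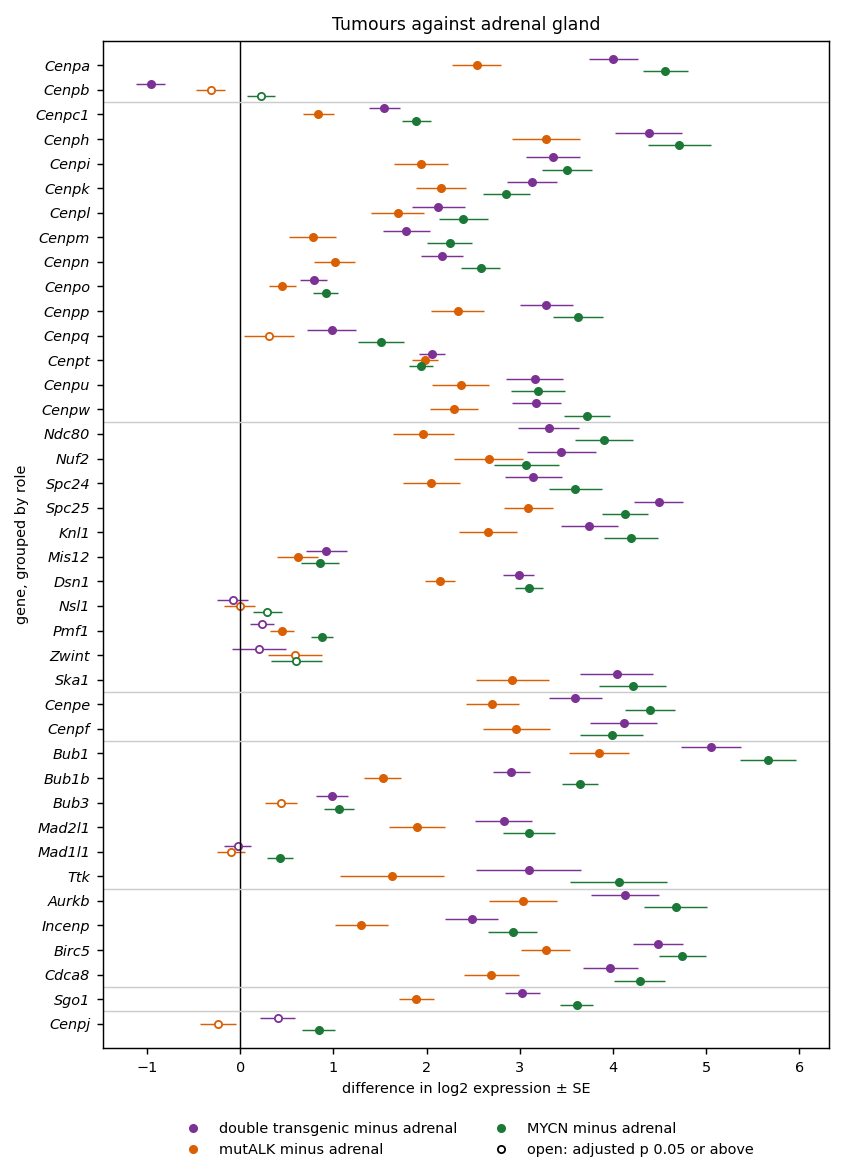
Difference in log2 expression from adrenal gland (x axis, point ± SE) for each gene (y axis, grouped by role) in double transgenic, mutALK and MYCN tumours, with open points at an adjusted p of 0.05 or above. Bub1 lies furthest right in all 3 tumour types, and mutALK points sit left of the other 2 for most genes, with Cenpt, Pmf1 and Zwint among the exceptions.

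Leaving out 1 array at a time, 30 to 33 genes were called in mutALK tumours against adrenal gland. Ttk lost its call without adrenal 2 (0.79, adjusted p = 0.0506) or mutALK 3 (1.27, 0.132), Cenpm without mutALK 3 (0.49, 0.112), adrenal 1 (0.80, 0.0572) or adrenal 2 (0.59, 0.101), and Cenpo without mutALK 3 (0.31, 0.105), adrenal 2 (0.40, 0.0707) or adrenal 3 (0.45, 0.0609). Mis12 lost its call without any of 7 arrays, with its lowest value of 0.35 (adjusted p = 0.138) without adrenal 2, and Pmf1 without mutALK 2 (0.34, 0.0643). In double transgenic tumours all 35 calls were kept without any single array, although Cenpq stood at 0.61 in place of 0.98 without adrenal 2. Without double transgenic 3 Cenpj rose there too (0.61, adjusted p = 0.0109).

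Most kinetochore genes were lower in mutALK than in MYCN tumours. Against MYCN tumours 33 of 40 genes were lower in mutALK tumours (17.2% of all genes were) and 0 were higher by limma (13.6% of all genes; 35 of the 40 and 39% of all genes differed in either direction at an unadjusted p under 0.05). The median difference was -1.25, against 0.003 over all genes, and 26 of the 33 were at least 2-fold lower. Of all 18193 genes 2299 were called with at least a 2-fold difference in either direction. In 33 genes the 3 mutALK arrays all lay below the 4 MYCN arrays (21.6% of all genes), and in 0 genes all above (19%). Marker lists of other cells also separated these groups: Schwann cell markers (4 of 6 measured) averaged 6.66 to 8.65 in mutALK and 5.33 to 5.76 in MYCN tumours, adrenal medulla markers (4 of 4) 10.41 to 10.45 and 8.96 to 9.29, and sympathoadrenal markers (8 of 9) 11.90 to 12.26 and 10.65 to 11.12. Their part in the differences was not tested.

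The 6 largest of these differences were those of Ttk (-2.43 ± 0.52, adjusted p = 0.00432), Bub1b (-2.12 ± 0.19, 3.06e-05), Cenpa (-2.03 ± 0.25, 0.000155), Ndc80 (-1.94 ± 0.31, 0.000734), Bub1 (-1.81 ± 0.30, 0.00102) and Sgo1 (-1.72 ± 0.17, 5.64e-05). None of these 6 genes had an overlap between the groups. By role, lower genes were both of the centromeric chromatin, 10 of 13 inner kinetochore, 7 of 11 outer kinetochore, both corona, all 6 checkpoint and all 4 passenger genes, Sgo1 and Cenpj (-1.08 ± 0.18), where 17.2% of all genes were lower. The 7 others were Cenpk (-0.70 ± 0.25, adjusted p = 0.0536), Cenpl (-0.70 ± 0.26, 0.0656), Nuf2 (-0.40 ± 0.35), Mis12 (-0.24 ± 0.21), Nsl1 (-0.30 ± 0.15), Zwint (-0.02 ± 0.27) and Cenpt. For Cenpt the difference was 0.04 with a 95% interval from -0.24 to 0.33.

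The calls rest in part on mutALK 1 and 2, and mutALK 3 lay nearest to the MYCN arrays in most genes. Leaving out 1 array at a time gave 26 (without mutALK 1) to 35 lower genes (without mutALK 3 or adrenal 2). Of the 33 calls 26 were kept without any single array, and Cenpb, Cenpo, Cenpu, Pmf1, Ska1, Cenpf and Bub3 each lost theirs without mutALK 1. Cenpb then stood at -0.34 in place of -0.54 (adjusted p = 0.0544). Cenpo, Cenpu, Ska1, Cenpf and Bub3 also lost theirs without mutALK 2, Cenpo without MYCN 2 or 3, Cenpf without any MYCN array or adrenal 1, and Cenpu without any array but mutALK 3 and adrenal 2. Without mutALK 3 Cenpu stood at -1.28 in place of -0.83. Leaving out the 5 liver arrays would keep only mutALK 2 in its group, so no count of calls is given here for that fit. Bub1 turned on the probe set: its second probe set read 7.05, 7.16 and 8.35 in mutALK tumours, against 6.56, 6.37, 6.36 and 6.31 in MYCN tumours, higher by 1.12 ± 0.29 (adjusted p = 0.0139). With probe sets averaged per gene neither Bub1 (-0.35, adjusted p = 0.415) nor Cenpa (-0.55, 0.127) was called.

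Double transgenic tumours lay above mutALK tumours in 20 genes (8.39% of all genes) and below them in 1, Cenpb (6.04% of all genes), and 14.4% of all genes were called in either direction. The median difference was 0.97, against -0.02 over all genes, and 24 genes were higher with no overlap between arrays (16.9% of all genes) and 1 was lower (16%). Beside these, macrophage markers (6 of 6) averaged 7.12 to 8.02 in double transgenic and 8.54 to 9.11 in mutALK tumours, endothelial markers 5.52 to 6.13 and 6.71 to 7.43, and adrenal medulla markers 8.95 to 9.57 and 10.41 to 10.45, and their part was not tested. Among the 20 higher genes were Cenpa (1.47 ± 0.26, adjusted p = 0.00606), Cenpi (1.42 ± 0.29, 0.0101), Spc25 (1.40 ± 0.26, 0.00723), Bub1b (1.38 ± 0.20, 0.00288), Ndc80 (1.34 ± 0.33, 0.0217), Bub1 (1.20 ± 0.32, 0.0323) and Sgo1 (1.14 ± 0.19, 0.00428). Cdca8 (1.28 ± 0.29, 0.0165), Birc5 (1.20 ± 0.27, 0.015), Incenp (1.18 ± 0.28, 0.0202) and Cenpn (1.16 ± 0.22, 0.00849) lay in the same range. Among the roles 7 of 13 inner kinetochore, 5 of 11 outer kinetochore, 2 of 6 checkpoint and 3 of 4 passenger genes were higher, where 8.39% of all genes were. Ttk differed by 1.46 with a 95% interval from 0.24 to 2.69 and was not called (adjusted p = 0.105), and neither corona gene was (0.89 ± 0.29 for Cenpe and 1.15 ± 0.36 for Cenpf, 0.0591 and 0.054).

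This count was not stable. Neither was the count over all genes (2624 in the main fit), which was lowest without double transgenic 2. The number of kinetochore genes called was 8 without mutALK 1, 7 without mutALK 2, 11 without double transgenic 1, 7 without double transgenic 2 and 30 without mutALK 3, in place of 21. Only 7 of the 21 calls were kept without any single array: Cenpa, Cenpi, Cenpn, Spc25, Dsn1, Bub1b and Sgo1. With only the 6 arrays of these groups in the fit 6 kinetochore genes were called.

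Between double transgenic and MYCN tumours 12.8% of all genes were called in either direction, and the kinetochore genes stood near that share. Of the 40, 4 were lower in double transgenic tumours (6.66% of all genes) and 0 were higher by limma (6.16% of all genes; 11 of the 40, or 27.5%, and 26.9% of all genes differed in either direction at an unadjusted p under 0.05). The 4 were Cenpb (-1.18 ± 0.15, adjusted p = 0.00103), Bub1b (-0.74 ± 0.19, 0.0267), Pmf1 (-0.64 ± 0.12, 0.00692) and Sgo1 (-0.58 ± 0.17, just under 0.05). Cenpb was the single gene with at least a 2-fold difference, where 784 of all 18193 genes were called with one in either direction. The median difference was -0.39, against -0.03 over all genes, and 34 of 40 differences were below 0, against 9920 of 18193 over all genes. With no overlap 13 genes were lower and 1, Spc25, was higher (16.2% and 14.3% of all genes). Intervals were wide enough to hold differences of either sign for most others, such as Bub1 (-1.28 to 0.05), Aurkb (-1.29 to 0.20), Cenph (-1.07 to 0.41) and Nuf2 (-0.39 to 1.14). Cenpb and Pmf1 kept their calls without any single array, while Bub1b and Sgo1 each lost theirs without MYCN 2, MYCN 3, MYCN 4, double transgenic 1 or double transgenic 3. Sgo1 also lost its call without any other array but mutALK 3 and adrenal 2. The number of calls was 2 without MYCN 2, MYCN 3, MYCN 4 or double transgenic 1 and 7 without adrenal 2. Here too the second Bub1 probe set ran the other way, at 1.53 ± 0.29 (adjusted p = 0.00673), and so did the third of Bub1b, at 0.78 ± 0.20 (0.0249), and the fifth of Zwint, at 1.24 ± 0.36 (0.0428). The third of Bub1b was dim, at 4.81 to 5.16 in double transgenic and 3.81 to 4.67 in MYCN tumours. The second of Bub1b, at 9.19 to 9.68 and 9.90 to 10.35, ran the same way as the brightest. Schwann cell markers averaged 7.04 to 7.39 in double transgenic and 5.33 to 5.76 in MYCN tumours, and endothelial markers 5.52 to 6.13 and 6.56 to 7.83, and their part was not tested.

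**Figure D4:**
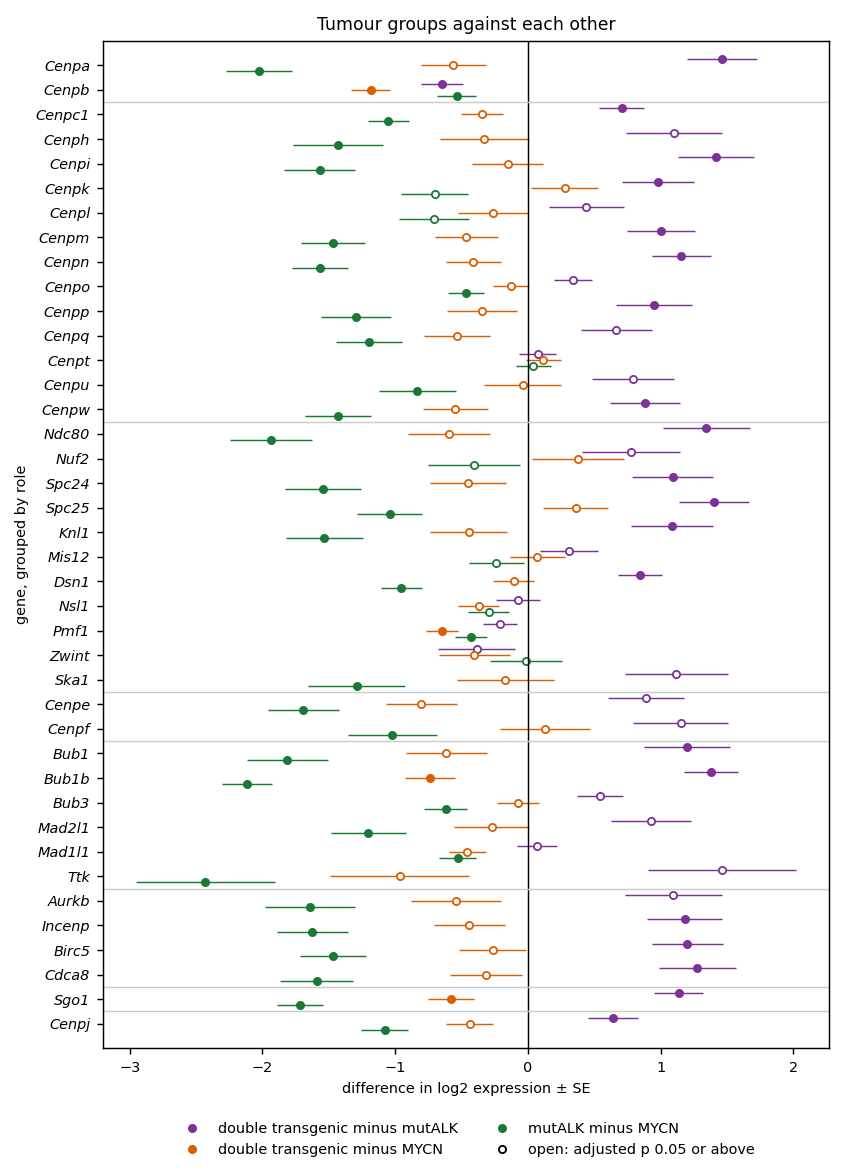
Difference in log2 expression between tumour types (x axis, point ± SE) for each gene (y axis, grouped by role), with open points at an adjusted p of 0.05 or above. Double transgenic minus mutALK points lie mostly right of 0 and mutALK minus MYCN points mostly left of 0, and for Cenpt all 3 lie near 0.

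Across the 3 tumour comparisons Cenpb, Bub1b and Sgo1 were called in each, and Cenpl, Cenpt, Nuf2, Mis12, Nsl1 and Zwint in none. How many of all genes were called in each or in none was not counted, and the 3 comparisons share arrays. Cenpb was the only gene lower in double transgenic than in both mutALK (-0.65 ± 0.16, adjusted p = 0.0213) and MYCN tumours among the calls. Its mutALK 1 value of 7.42 lay close to the double transgenic arrays, and without mutALK 2 (-0.55, adjusted p = 0.0856), mutALK 3, double transgenic 2 or double transgenic 3 the difference from mutALK tumours was no longer called.

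Other gene lists of cell division were counted in the same fit. Of 29 other kinetochore genes 24 rose and 2 fell in double transgenic, 22 rose and 1 fell in mutALK and 24 rose and 1 fell in MYCN tumours against adrenal gland, with medians of 2.53, 1.53 and 2.97. The shares of all genes to set beside this and the lists that follow are 24.3% higher in double transgenic, 21.3% in mutALK and 25.4% in MYCN tumours, and 17.2% lower in mutALK than in MYCN tumours. Kif2c, a kinesin that takes microtubules apart at centromeres, rose by 5.13 ± 0.28 in MYCN tumours, Trip13, which recycles the checkpoint complex, by 4.92 ± 0.31 and the mitotic kinase Plk1 by 4.89 ± 0.22. In mutALK against MYCN tumours 20 of the 29 were lower and 1 was higher, with Plk1 at -2.41 ± 0.22 and Ska3 at -2.19 ± 0.32 in front. In double transgenic against MYCN tumours 5 were lower and 1 was higher (6.66% and 6.16% of all genes), among them Oip5, a loading factor for Cenpa, at -1.18 ± 0.23, Plk1 at -0.94 ± 0.22 and Cenpv at -0.82 ± 0.13.

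Of 22 condensin and cohesin genes, which shape and hold sister chromatids, 18 rose and 1 fell in double transgenic, 14 rose and 1 fell in mutALK and 20 rose in MYCN tumours (medians 1.54, 0.86 and 1.63), led in MYCN tumours by Ncapg (4.86 ± 0.34), Esco2 (4.74 ± 0.40) and Espl1, the separase (4.49 ± 0.25). In mutALK against MYCN tumours 20 were lower and 1 higher. A list of 17 genes covered the anaphase promoting complex, the ubiquitin ligase that the checkpoint restrains, and its partners and regulators. Of these, 10 rose and 2 fell in double transgenic, 11 rose and 2 fell in mutALK and 11 rose and 1 fell in MYCN tumours (medians 0.80, 0.48 and 0.84). Those rises were largest for Ube2c (5.09 ± 0.29), Cdc20, the activator that the checkpoint captures (4.22 ± 0.27), and Fbxo5 (4.001 ± 0.27) in MYCN tumours. Among 25 DNA replication genes 24 rose in double transgenic, 22 in mutALK and 24 in MYCN tumours (medians 2.48, 1.48 and 2.81), led in MYCN tumours by Prim1 (4.31 ± 0.23), Cdc6 (4.22 ± 0.26) and Cdt1 (4.11 ± 0.28), and 22 were lower in mutALK than in MYCN tumours. Of 13 transcription factors and cofactors of the cell cycle 10 rose in double transgenic, 9 in mutALK and 10 in MYCN tumours, and 1 fell in each (medians 1.66, 0.91 and 2.13), with E2f8 (3.68 ± 0.34), E2f7 (3.47 ± 0.32) and Mybl2 (3.37 ± 0.29) in front in MYCN tumours. The order MYCN, double transgenic, mutALK, adrenal from high to low held for 20 of the 29 other kinetochore, 22 of the 25 replication, 11 of the 22 condensin and cohesin, 6 of the 17 anaphase promoting complex and 9 of the 13 transcription factor genes, and for 11.5% of all genes.

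**Figure D5:**
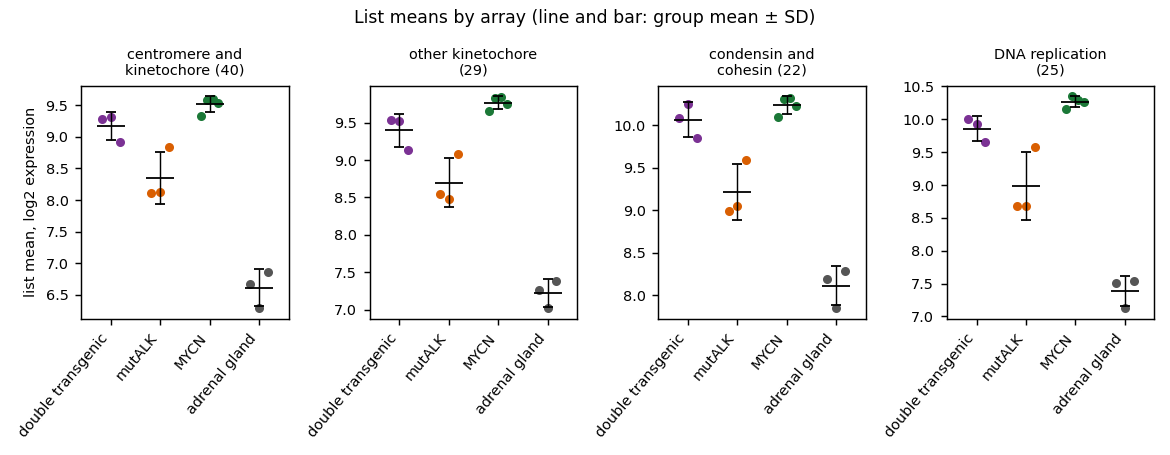
Mean log2 expression over each list on each array (points, 1 per array) with the group mean ± SD (line and bar), for the 40 centromere and kinetochore genes and 3 other lists; each panel has its own y axis. In all 4 lists the tumour arrays lie above the adrenal arrays, and mutALK 3 lies above the other 2 mutALK arrays.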

How the data were processed

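RNA of 10 tumours and 3 adrenal glands was hybridised to Affymetrix mouse arrays. The deposited values are RMA expression on the log2 scale, made in Partek per the submitters' processing notes, which give no versions. Whether all arrays were normalized in 1 session is not given in the sources used here. The 3 double transgenic arrays have sample numbers set apart from those of all other arrays. Whether they were also run or processed apart is not given, and such a difference could not be told apart from genotype. Of 45101 probe sets 34945 carry exactly 1 gene in the platform annotation, 932 with several genes and 64 controls were left out, and of the rest 34741 matched RefSeq (GRCm38.p6), which changed 0 symbols. Each gene was read from its probe set with the highest mean, with no filter on dim genes, which gave 18193 genes.

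Groups came from the labelled genotype. limma 3.58.1 in R 4.3.3 estimated 4 group means from the 13 arrays together (lmFit and eBayes, 9 residual and 2.28 prior degrees of freedom). The 6 comparisons were tested two-sided with Benjamini-Hochberg adjustment over all genes, and intervals are at 95%. The fit was tested on simulated data first. The number of arrays limits the precision. The alternatives changed the normalization, the probe set per gene, the filter on dim genes, the variance model, the arrays in the fit and the treatment of arrays that share a title number or hold liver transcripts.

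The 40 members, the other gene lists and the marker lists were chosen with earlier results of these data known. Values of every array are given for the 3 members that rose most and the 3 that differed least in MYCN tumours against adrenal gland, for the 6 with the largest called differences between tumour types and for Cenpa. Cenpt, the second probe set of Nsl1 and the second probe set of Bub1 were added after their values were seen. Of each other list up to 3 called genes per comparison are named by size. Python 3.11.15 with matplotlib 3.10.9 made the figures.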

Additional observations from a re-analysis of the deposited data

Results flagged for a closer look

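In the MYCN group, the only one with 4 arrays, each of the 40 genes was checked for an array far from the other 3, by the gap to its nearest neighbour as a share of the group's range (Dixon's test at the 95% level). Chance flags about 1 gene in 20, and 3 of 40 were flagged, all for a low MYCN 1. Ska1 read 7.62 in MYCN 1 and 8.46 to 8.48 in the others (a share of 0.974), Birc5 10.90 and 11.27 to 11.34 (0.847), and Nuf2 9.16 and 9.54 to 9.61 (0.833). MYCN 1 also had the highest B cell and T cell marker means of the 13 arrays, and the part of these in the 3 values was not tested.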

How the results depend on the processing

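The results were recomputed under 10 other settings and without each of the 13 arrays. The number of members called against adrenal gland ranged from 34 to 37 in double transgenic tumours over the other settings (35 to 36 without single arrays), from 27 to 34 in mutALK tumours (30 to 33) and from 36 to 39 in MYCN tumours (36 to 38), and from 30 to 35 in mutALK against MYCN tumours (26 to 35). In double transgenic against mutALK tumours the 21 calls became 6 with only the arrays compared in the fit and 11 with the title number as a random block, and ranged from 7 to 30 without single arrays. In double transgenic against MYCN tumours the 4 calls became 9 with only the arrays compared, 2 with that block and 2 with arrays of a shared title number averaged, and ranged from 2 to 7 without single arrays. Over all genes 2624 were called in double transgenic against mutALK tumours and 1006 (without double transgenic 2) to 1624 in the settings that changed this count most, and 2333 in double transgenic against MYCN tumours and 1226 (without double transgenic 3) to 1494. The median over members was 2.47 in double transgenic and 2.53 in MYCN tumours against adrenal with the mean of all probe sets, and 1.47 in mutALK tumours without the liver arrays. Nsl1 changed direction with the mean of all probe sets, to 1.80 in double transgenic against adrenal (adjusted p = 2e-06), 1.18 in mutALK against adrenal (6.12e-05) and 0.62 in double transgenic against mutALK (0.0175); its 2 probe sets differ, as shown above. With that mean Bub1 (-0.35, adjusted p = 0.415) and Cenpa (-0.55, 0.127) were no longer called in mutALK against MYCN tumours. No paired analysis was possible because the groups share no replicate numbers in the labels. Arrays mutALK 2 and 3, and MYCN 2 and 3, share a number in their titles (consensus correlation 0.456 over genes). Signal over background was not analysed, so how far low adrenal values lie above background is not known here.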
